A study of Homo sapiens with 2 samples.

Results

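The 24 genes described here had a low but measurable share of the RNA before c-Myc was released and almost none of it a day later. Their levels per cell fell by less and are given below. They were selected on the measured values themselves: a gene was kept if its RPKM (reads scaled to transcript length and to the reads of the library) was 1 or more in the low c-Myc library and below 0.2 in the high c-Myc library. Each of the 19096 gene symbols was represented by its transcript row with the highest mean RPKM. Of the 10036 genes at 1 or more in the low c-Myc library, these 24 (0.239%) met the rule. The mirror rule, below 0.2 before release and 1 or more after it, was met by 55 of 10112 genes (0.544%). Because the rule used the levels in both libraries, the falls in RPKM given below describe the selection and carry no test.

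The cells were P493-6, a human B cell line (labelled as B-cell lymphoma) that carries a c-Myc transgene which tetracycline holds silent. The low c-Myc group was 1 library from cells at 0 h of release, with the transgene repressed, and the high c-Myc group was 1 library from cells at 24 h of release. Both came from poly(A)-selected RNA to which synthetic RNAs had been added in proportion to cell number. With 1 library per group no difference has a replicate check, every statement is about this pair of libraries, and the line and its medium are common to both.

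c-Myc is a transcription factor that, with its partner MAX, binds the promoters of active genes and drives growth and division of lymphocytes. Cells held without it rest, and on release they enlarge and hold far more RNA. A gene can therefore lose share of the RNA pool without losing RNA per cell, so RPKM and the level per cell are given separately here.

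The library depths read from the steps between low RPKM values were about 103200000 reads before release and 105600000 after it, so 0.2 RPKM of a 2 kb transcript equals about 42.2 reads after release. Synthetic RNAs were a median of 5.88-fold higher in RPKM before release than after it (interquartile range 4.51 to 7.18, from the 46 that reached an RPKM of 1 before and after release). The B cell markers MS4A1, CD79A, CD79B and PAX5 stood between an RPKM of 154 and 1202 before release and between 121 and 460 after it.

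Sequence is shown for the chemokine CCL3 and for the histone genes HIST1H2BF and HIST1H1D, to show promoter motifs in genes of 2 of the classes described below; they were chosen after the values were seen. Each run is the 250 bases before the gene's start, 5′ to 3′ on the gene's strand, from RefSeq on GRCh38.p14. CCL3 lies on the minus strand at chr17:36090144-36090393, HIST1H2BF (now H2BC7) on the plus strand at chr6:26199266-26199515, and HIST1H1D (now H1-3) on the minus strand at chr6:26234988-26235237. Capitals mark 3 of the motifs searched on both strands. They are the core motif TATAAA of many promoters, the motif CCAAT found further upstream, and the octamer ATGCAAAT that lymphoid and histone genes are known for. The other motifs searched had no match in these 3 windows.
CCL3: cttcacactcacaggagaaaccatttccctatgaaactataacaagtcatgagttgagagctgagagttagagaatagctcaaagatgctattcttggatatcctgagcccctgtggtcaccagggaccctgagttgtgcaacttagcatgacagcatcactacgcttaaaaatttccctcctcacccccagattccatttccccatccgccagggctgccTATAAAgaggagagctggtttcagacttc
HIST1H2BF: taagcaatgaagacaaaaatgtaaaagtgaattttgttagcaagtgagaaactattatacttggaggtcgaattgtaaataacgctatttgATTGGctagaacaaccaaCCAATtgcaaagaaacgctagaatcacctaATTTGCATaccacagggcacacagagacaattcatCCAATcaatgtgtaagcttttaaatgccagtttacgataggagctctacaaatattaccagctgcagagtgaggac
HIST1H1D: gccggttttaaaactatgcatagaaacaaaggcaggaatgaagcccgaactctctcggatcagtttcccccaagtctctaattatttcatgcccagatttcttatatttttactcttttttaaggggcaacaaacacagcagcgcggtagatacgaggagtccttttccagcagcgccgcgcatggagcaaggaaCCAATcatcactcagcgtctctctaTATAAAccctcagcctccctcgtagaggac
The CCL3 window holds TATAAA with its first base 29 bases before the start, and the HIST1H1D window holds it 30 bases before the start together with CCAAT at 55. The HIST1H2BF window has no TATAAA but holds CCAAT at 159 (opposite strand), 141 and 76 bases before the start. The octamer, also on the opposite strand, lies at 111 bases. None of the marked motifs overlap. TATAAA was present in 11.95%, CCAAT in 35.7% and the octamer in 1.80% of all 27305 promoter windows of 300 bases in that table. These matches are descriptions of letters and not of binding. RefSeq windows were matched for 14 of the 24 genes, too few for a summary of promoters over the set, which is therefore void.

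The 24 genes were already among the weakest before release. Their RPKM in the low c-Myc library ran from 1.02 (SSPN) to 3.09 (HIST1H2BF) with a median of 1.44, against a median of 7.86 over the 10036 genes, and the highest of them ranked 7879. In the high c-Myc library the 24 ran from 0 (MT1F) to 0.199 (SCG5), with a median of 0.131. The share of genes that met the rule was 2.28% of the 614 genes between 1 and 1.5 RPKM before release, 1.06% of the 565 between 1.5 and 2, and 0.169% of the 2366 between 2 and 5. None of the 4163 genes between 5 and 20, nor of the 2328 at 20 or more, was below 0.2 after release, and the lowest of those 2 classes stood at 0.357 and 0.394.

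**Figure D1:**
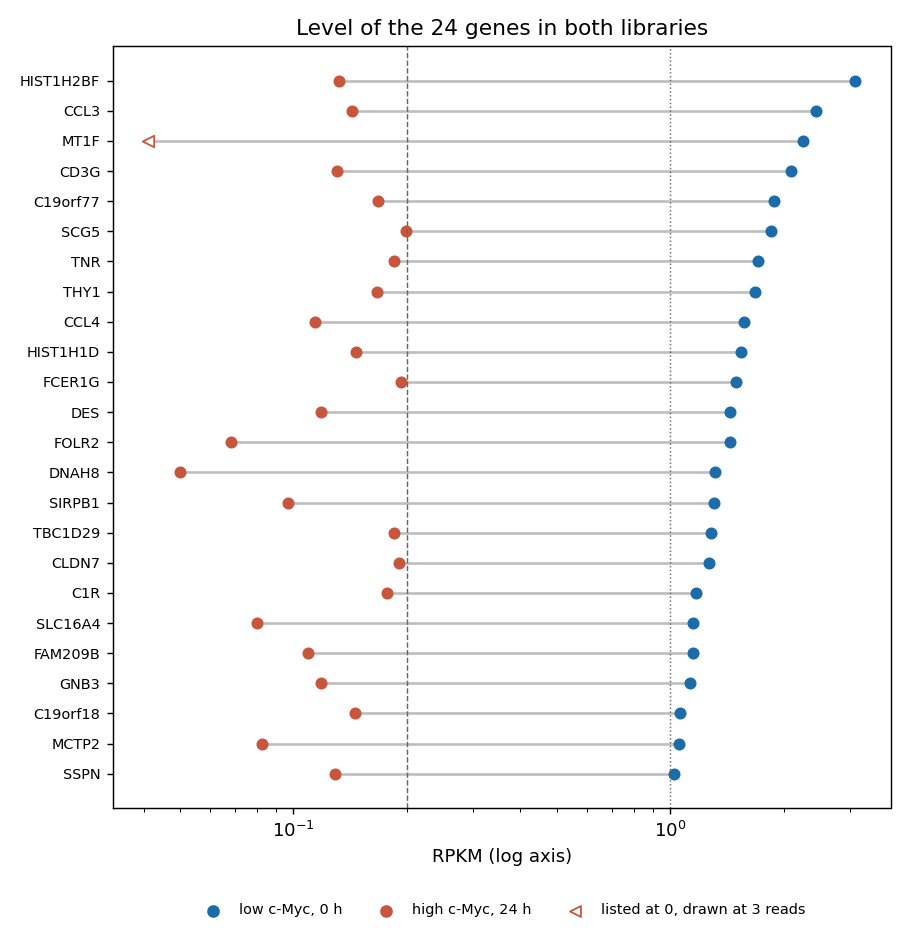
RPKM of each of the 24 genes on a log axis, with 1 point per library, blue for the low c-Myc library (0 h) and red for the high c-Myc library (24 h). The dotted line is the threshold of 1 and the dashed line that of 0.2. The blue points sit between 1.02 and 3.09. The red points sit at or below 0.199, and MT1F, listed at 0, is drawn as an open arrow at the level of 3 reads.

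Genes just inside the rule were SCG5 at 0.199, FCER1G at 0.193 and CLDN7 at 0.191 RPKM after release, and genes just outside were CHIT1 at 0.202, PROC at 0.219 and SLC2A14 at 0.221. At the other threshold SSPN (1.02), MCTP2 (1.057) and C19orf18 (1.06) lay just inside before release, while GPR18 (0.978), EFHC2 (0.952) and DHRS9 (0.948) lay just outside. The boundary of the group thus runs through a continuous range of levels at both ends.

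CCL3 and CCL4, chemokines that attract T cells and monocytes and are made by B cells after activation, are neighbours in the genome. CCL3 stood at an RPKM of 2.44 before release and 0.143 after it, on 200 and 12 reads, 17.0-fold lower after release. CCL4 stood at 1.57 and 0.114, 13.8-fold lower, on at least 54 and 4 reads. CCL5, another chemokine and the nearest gene at 1 or more on the far side of CCL3, stood at 3.81 and 3.33. Both CCL3 and CCL4 stood at a low RPKM before release and below 0.2 after it. Their near-identical copies CCL4L1 and CCL4L2 were each listed at 1.59 and 0.303, and CCL3L1 and CCL3L3 at 0.385 and 0.377 before release and at 0 after it. The sources used here do not give how reads were assigned between such copies, so the split among them is uncertain. CCR1, a receptor of CCL3, stood at 2.44 and 0.709.

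Genes usually read as marks of T cells or myeloid cells were the next group. CD3G, a chain of the CD3 complex of the T cell receptor, stood at an RPKM of 2.10 before release and 0.13 after it, 16.1-fold lower, on 566 and 36 reads. Of the other CD3 genes, CD3E stood at 8.30 and 1.499, CD247 at 0.0231 and 0, and CD3D at 0 in both libraries. FCER1G, the signalling chain shared by Fc receptors, stood at 1.49 and 0.193, and SIRPB1, an activating receptor of myeloid cells that signals through the adaptor TYROBP, at 1.31 and 0.097. TYROBP itself stood at 1.14 and 0.376, outside the rule, and SIRPG, the gene beside SIRPB1, at 2.25 and 0.459. FOLR2, the folate receptor known from macrophages, stood at 1.44 and 0.0682, 21.1-fold lower. SLC19A1, the reduced folate carrier, went the other way, from 1.61 before release to 54.7 after it.

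The libraries hold RNA from many cells, so fewer cells of a type and less RNA per cell cannot be told apart. Of 27 T cell markers, 10 were at an RPKM of 1 or more before release and 8 after it, and their summed RPKM was 173 and 125. SIT1 gave 109 of the sum before release. CD3E (above), CD2 at 2.11 and 0.335, CD7 at 3.90 and 2.48 and LCK at 9.22 and 11.1 were present, while the defining genes CD3D, CD8A and CD8B were at 0 in both libraries. Of 48 myeloid markers, 10 were at 1 or more before release and 7 after it, summed to 370 and 205, of which SPI1, a factor that B cells also express, gave 171 before release. CD68 stood at 66.5 and 11.1 and LYZ at 27.2 and 4.91, while MPO, S100A8 and CD163 were at 0 in both and CD14 stood at 0.0699 and 0.0746. Of 26 NK cell markers, 4 and 3 were at 1 or more and the sums were 43.8 and 12.7, of which NCR3 gave 16.6 before release. NKG7 stood at 1.59 and 0.299, while NCAM1 stood at 0.0505 and 0.0207, GNLY at 0.00983 and 0 and KLRD1 at 0.00613 and 0. CD3G, FCER1G, SIRPB1 and FOLR2 each fell by more in RPKM than any of the marker sums above. Each sum fell by less than the synthetic RNA ratio of 5.88, so by that ratio none was lower per cell. The part of other cells in the 4 genes was not tested.

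Further surface and extracellular genes had less in common. THY1, a small surface glycoprotein of thymocytes, fibroblasts and neurons, stood at an RPKM of 1.68 before release and 0.166 after it, on 621 and 63 reads. C1R, the protease that starts the classical complement pathway, stood at 1.17 and 0.178. Its usual partner C1S stood at 0.299 and 0.237 and its neighbour and relative C1RL at 16.2 and 7.03. TNR, a matrix protein of the nervous system, stood at 1.71 and 0.185 on 913 and 101 reads, so by the recovered counts its level after release rested on more reads than that of any other of the 24. CLDN7, a tight junction protein, stood at 1.27 and 0.191 in the row that represents it. Its other 2 transcript rows stood at 0.966 and 0.255 and at 0.893 and 0.266, outside the rule at both ends. Of 33 markers of fibroblasts, epithelium and endothelium, 8 were at 1 or more in each library, summed to 57.7 and 38.2. TAGLN stood at 15.5 and 9.52, PDGFRB at 10.7 and 2.80 and COL1A1 at 8.06 and 9.23, while COL3A1, DCN, LUM and PDGFRA were at 0 in both. The part of such cells in THY1 was not tested.

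The set held 2 histone genes, and most of their relatives at an RPKM of 1 or more before release were lower after it. HIST1H2BF, which encodes the core histone H2B, stood at an RPKM of 3.09 before release and 0.132 after it, 23.4-fold lower, on at least 137 and 6 reads. HIST1H1D, a linker histone, stood at 1.54 and 0.147, 10.5-fold lower, on at least 82 and 8 reads. Of the 8 linker histone genes in the table, all 5 at 1 or more before release, HIST1H1D included, were at least 2-fold lower after it (13.3% of all genes at that level were), among them HIST1H1E at 2.82 and 0.242 and HIST1H1C at 58.2 and 10.3. Of the 7 H2B genes at 1 or more before release, 6 were at least 2-fold lower, HIST1H2BF included, with HIST1H2BC at 6.34 and 0.368 and HIST2H2BE at 7.80 and 0.713. Of the 11 below 1 before release, 4 were at least 2-fold higher after it (HIST1H2BE, HIST1H2BI, HIST1H2BL and HIST1H2BN), with HIST1H2BN at 0.584 and 1.33. Another 2 were lower (HIST1H2BO and HIST2H2BF, both at 0 after it), on only about 1.63 and 2.16 reads before release. The share over all genes below 1 was not computed, so nothing is read from these counts. H2B genes have nearly the same coding sequence, and histone mRNA is mostly not polyadenylated while these libraries were selected for poly(A), so these levels are uncertain as measures of histone RNA.

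MT1F was the only gene at 1 or more before release that was listed at 0 after it. It encodes a metallothionein, a small protein that binds zinc and copper. It stood at an RPKM of 2.25 before release, on about 160 reads. A count of 0 in the high c-Myc library allows up to 3 reads, an RPKM of 0.0412, so against that floor MT1F was at least 54.5-fold lower after release. With the counting error of its 160 reads included, the exact 95% interval began at 43.9-fold. Both bounds rest on a transcript length that could not be checked against recovered reads. Its relatives at 1 or more were lower by much less: MT1X stood at 21.5 and 7.33, MT1E at 6.10 and 3.02 and MT2A at 161 and 88.3. Metallothionein transcripts are near-identical in part, so the level of each gene is uncertain where reads match several of them.

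**Figure D2:**
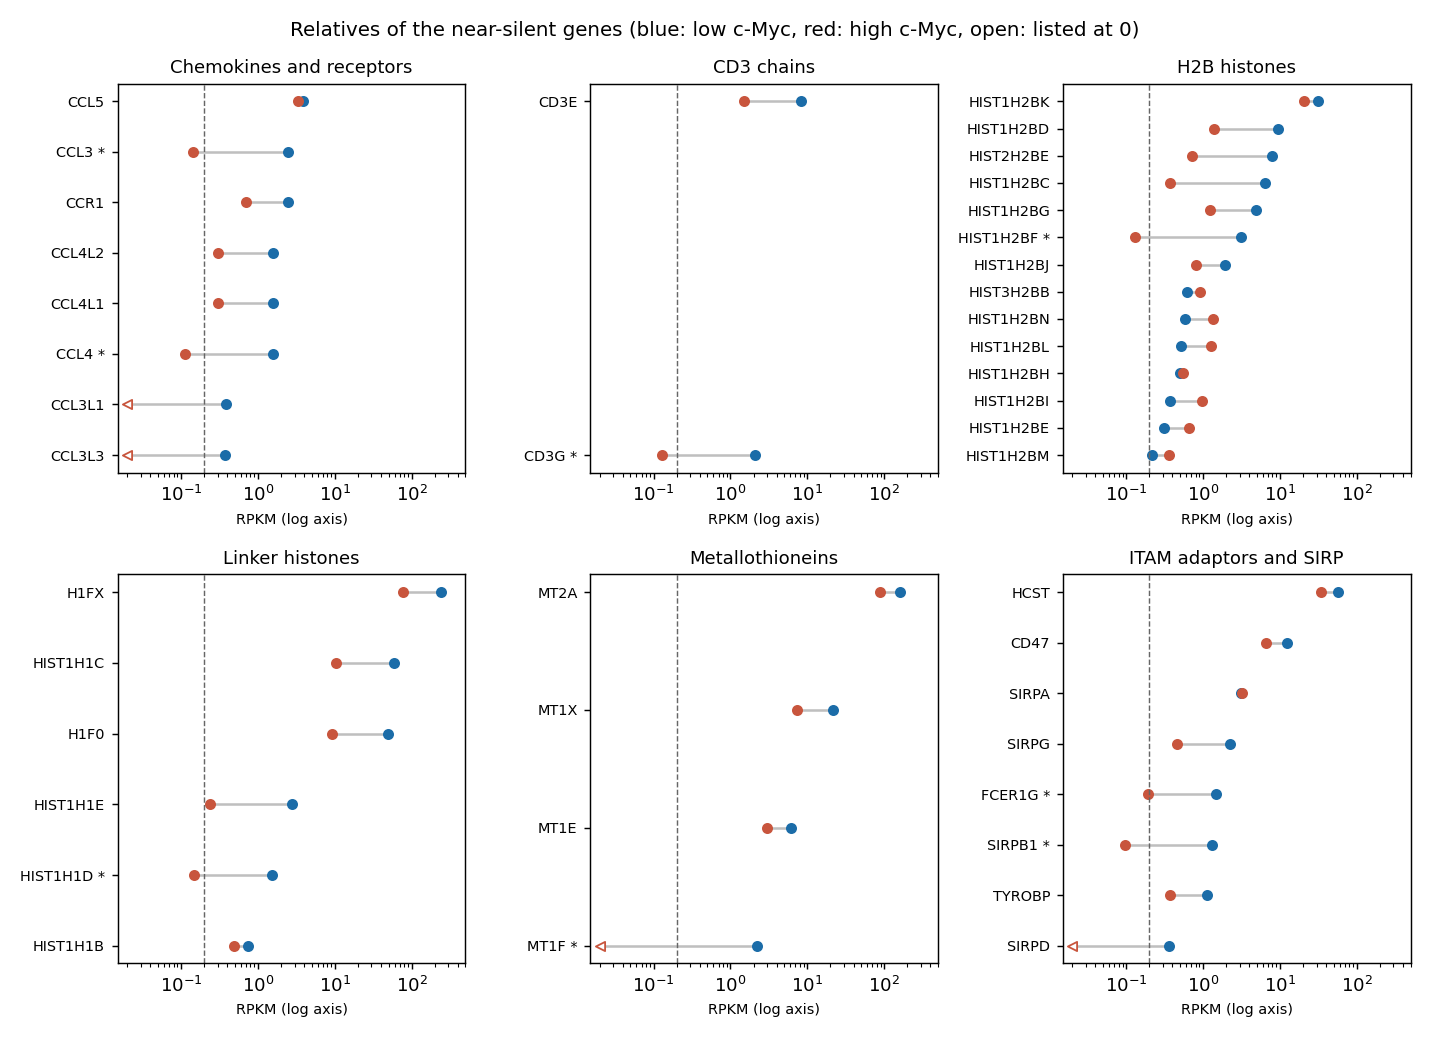
RPKM on a log axis of relatives of the 24 genes in 6 families, with blue for the low c-Myc library and red for the high one, an open arrow for a value listed at 0, an asterisk for the genes of the set, and a dashed line at 0.2. Relatives below 0.2 in both libraries are left out. CD3E, MT1X and HIST1H2BC stay above the line after release, at 1.499, 7.33 and 0.368.

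Genes known from muscle, cilia and membrane traffic made up much of the rest. DES, the intermediate filament of muscle, stood at an RPKM of 1.44 before release and 0.118 after it, and SSPN, a member of the dystrophin complex, at 1.02 and 0.129. Of 53 neuronal and muscle genes, 11 were at 1 or more before release and 8 after it, and their summed RPKM went from 80.9 to 169, with MYOD1 and SNAP25 at 0 in both libraries. DNAH8, a heavy chain of the dynein of cilia and sperm tails, stood at 1.31 and 0.0499 on 1978 and 77 reads, 26.3-fold lower. Among 13 axonemal dynein heavy chains, the other gene at 1 or more before release was DNAH1, at 7.01 and 3.22. SCG5, a chaperone of the prohormone convertase PCSK2, stood at 1.85 and 0.199, while PCSK2 was at 0 in both libraries.

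SLC16A4, of the monocarboxylate transporter family, stood at an RPKM of 1.15 before release and 0.0799 after it, 14.4-fold lower. Its relatives SLC16A1 and SLC16A3, which carry lactate, were higher after release, at 1.48 and 16.9 and at 11.2 and 33.3. SLC16A13, at 6.33 and 5.72, and SLC16A6, at 2.09 and 1.92, changed little. GNB3, a beta subunit of heterotrimeric G proteins, stood at 1.13 and 0.118, while GNB1 stood at 101 and 80.5 and GNB2 at 91.4 and 151. MCTP2, a membrane protein with C2 domains, stood at 1.057 and 0.0828, and its relative MCTP1 at 1.94 and 1.54. The named relatives in these 3 families stayed at an RPKM of 1.54 or more after release.

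The last 4 genes are little described. C19orf77 (now SMIM24) stood at an RPKM of 1.88 before release and 0.167 after it, and C19orf18 at 1.06 and 0.145. FAM209B stood at 1.15 and 0.109, and its neighbour and copy FAM209A at 2.004 and 0.392. TBC1D29, which RefSeq now lists as a transcribed pseudogene, stood at 1.28 and 0.185. FAM209B and FAM209A were both lower after release, and reads shared between them cannot be told apart.

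For 7 of the 24 symbols the tables held several transcript rows. All 4 rows of FOLR2 gave an RPKM of 1.42 to 1.44 before release and 0.0671 to 0.0682 after it, and both rows of SCG5 gave 1.84 or 1.85 and 0.198 or 0.199. The 5 rows of SLC16A4 ran from 1.051 to 1.15 and from 0.0357 to 0.084, and the 3 rows of MCTP2 from 1.03 to 1.057 and from 0.038 to 0.0828. SSPN had a second row at 0.983 and 0.124, just under the threshold of 1. SIRPB1 had rows at 1.33 and 0.0747 and at 0.143 and 0.0127. Apart from the CLDN7 rows, no other row of these genes was above 0.2 after release.

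By size of fall the 24 were not alone. On the RPKM scale, 82 of the 10036 genes were lower after release by at least 6.59-fold, the smallest fall in the set (C1R), and those outside the set had a median RPKM of 8.07 before release. Among the 23 genes above 0 after release the fall ran from 6.59-fold to 26.3-fold with a median of 10.5-fold. Over all 10036 genes the median ratio of low over high c-Myc RPKM was 0.893, and 13.3% were at least 2-fold lower after release. Among genes above 0 after release, 9 were lower by 20-fold or more, and DNAH8, HIST1H2BF and FOLR2 were the 3 of them in the set.

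**Figure D3:**
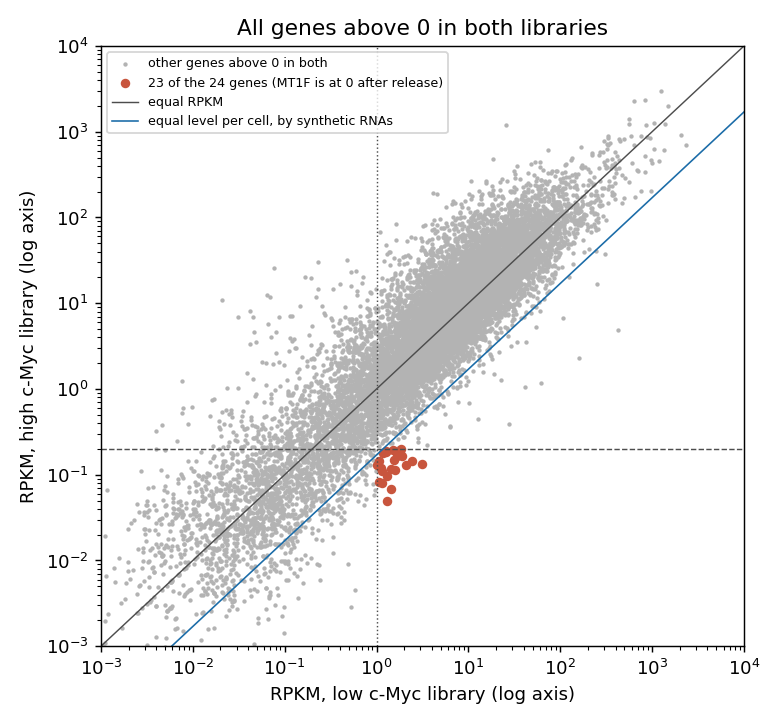
RPKM in the low c-Myc library (x) against the high c-Myc library (y), both on log axes, for genes above 0 in both; the 23 genes of the set above 0 after release are in red. The black line is equal RPKM and the blue line an equal level per cell, from the median ratio of 5.88 of the synthetic RNAs. All 23 lie below the blue line, several of them close to it.

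Per cell the falls were much smaller. Dividing each RPKM ratio by the synthetic RNA ratio of 5.88 gave a level per cell that was 1.12-fold (C1R) to 4.47-fold (DNAH8) lower after release among the 23, with a median of 1.78-fold, and at least 9.27-fold lower for MT1F against the floor of 3 reads, with an exact 95% interval that began at 7.46-fold. Of the 24 genes, 11 were at least 2-fold lower per cell, beside 26 of all 10036 genes (0.259%). The count was 18 at the lower quartile of the synthetic RNA ratios and 7 at the upper. The rule used this contrast, so nothing is read from the 11 against the 26. By the same ratio, 0.2 RPKM after release equals 1.18 RPKM before it per cell. A gene near both thresholds of the rule can therefore have had about the same number of transcripts per cell in both libraries.

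The 11 genes were MT1F, DNAH8 (4.47-fold), HIST1H2BF (3.97-fold), FOLR2 (3.59-fold), CCL3 (2.897-fold), CD3G (2.73-fold), SLC16A4 (2.44-fold), CCL4 (2.35-fold), SIRPB1 (2.29-fold), MCTP2 (2.17-fold) and DES (2.07-fold). At the other end C1R (1.12-fold), CLDN7 (1.13-fold), TBC1D29 (1.18-fold), C19orf18 (1.24-fold) and FCER1G (1.32-fold) were near an equal level per cell. For these 5 the exact binomial 95% interval on reads reached below 1, as it did for CCL4, HIST1H1D and FAM209B. The reads of CCL4, HIST1H1D, CLDN7 and C1R are the fewest that fit, so their intervals can be too wide. These intervals cover counting error only and are no test, since the rule chose the genes on the same reads. For DNAH8 it ran from 3.56-fold to 5.69-fold, and for CD3G from 1.95-fold to 3.94-fold. The interval of C1R, from 0.804-fold to 1.597-fold, spans an equal level.

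**Figure D4:**
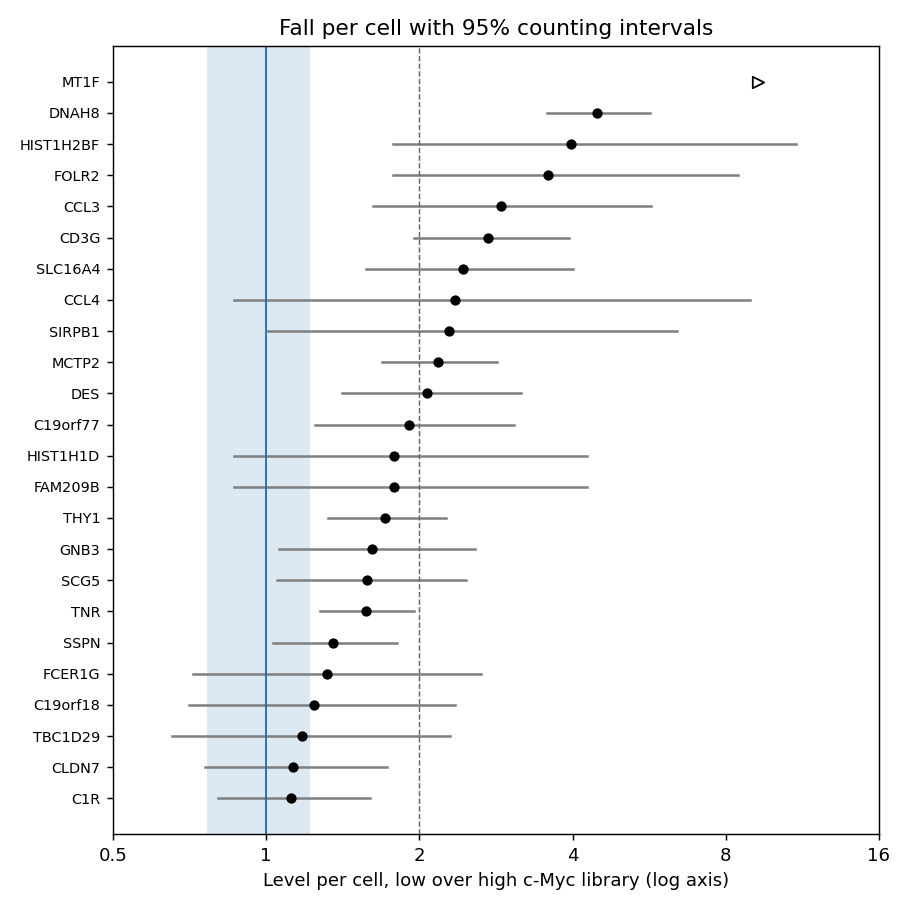
Level per cell in the low c-Myc library over that in the high one, on a log axis, for each of the 24 genes, with 95% exact binomial intervals that cover counting error only. The solid line is an equal level per cell, the band the interquartile range of the synthetic RNAs around their median, and the dashed line 2-fold. DNAH8 stands at 4.47 and C1R at 1.12, and the open arrow for MT1F is drawn at 9.27, its value against a floor of 3 reads and not the end of an interval.

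Most relatives that were lower in RPKM, but above 0 after release, were not lower per cell. The ratio per cell, low over high c-Myc, was 0.941 for CD3E, 0.894 for CCL4L1 and CCL4L2, 0.832 for SIRPG, 0.514 for TYROBP, 0.499 for MT1X and 0.963 for HIST1H1C. Among relatives above 0 after release, values above 1 outside the set were found among the histones. They were HIST1H2BC at 2.92, HIST1H1E at 1.98, HIST2H2BE at 1.86 and HIST1H2BD at 1.16. Relatives listed at 0 after release have no ratio, so a fall per cell in them is not excluded. Among them SIRPD had about 72.5 reads before release, CLDN11 about 47.4 and CCL3L3 about 30.5.

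The spread of the synthetic RNAs adds to that counting error. The 16 synthetic RNAs between an RPKM of 1 and 5 before release, the range that holds the 24 genes, had a median ratio of 6.01 with an interquartile range of 4.45 to 9.09. In the column that the authors renormalized to the synthetic RNAs, the 23 genes were lower after release by 1.31-fold (C1R) to 5.11-fold (DNAH8). With MT1F, 15 of the 24 were at least 2-fold lower there. In the renormalized columns the 46 synthetic RNAs above were themselves still a median of 1.2-fold higher before release than after it. The larger falls in those columns are therefore no separate check of the falls per cell.

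Transcript length and base composition were not used by the rule. Transcript length, known for 22 of them, had a median of 1231.5 bases (591 for FCER1G to 14360 for DNAH8), against 2772 over the 10036 genes and 3049 over the 2134 other genes in the same range of RPKM before release. Transcript GC content had a median of 50.6% (38.4% for SSPN to 62.9% for DES), against 50.1% over all and 45.4% over those in the same range. The median length was 2472 bases for the genes of the set below 0.1 after release, of which 5 of 6 had a length, and 987 for the 4 at 2 or more before it. For some genes the paired length did not match the recovered reads. The 55 genes of the mirror rule had a median GC content of 61.8% and a median length of 2094 bases. A short transcript gives fewer reads at the same RPKM, and the part of length in the set was not tested.

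Genomic neighbours moved in both directions. For 23 of the 24 genes the nearest gene on either side at an RPKM of 1 or more before release was found in RefSeq order, giving 46 pairs. In 16 of them (34.8%) the neighbour was at least 2-fold lower after release, beside 13.3% of all genes, and in 11 (23.9%) it was at least 2-fold higher, beside 24.4% of all genes. The neighbours that were lower included relatives of the gene itself, such as CD3E beside CD3G (5.54-fold), FAM209A beside FAM209B (5.11-fold), SIRPG beside SIRPB1 (4.89-fold) and MT1X beside MT1F (2.93-fold). They also included HIST1H3E, a histone gene of another class, beside HIST1H1D (5.56-fold). CCL3 and CCL4, each the other's neighbour, were the only pair within the set and account for 2 of the 16. On the other side DOHH, beside C19orf77, stood at 2.13 before release and 53.1 after it, and both neighbours of DES, DNPEP and GMPPA, were higher.

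Gene lists chosen by function took in 5 of the 24 genes. CCL3 and CCL4 were 2 of 27 cytokine, chemokine and growth factor genes at 1 or more before release, of which 8 were at least 2-fold lower and 5 at least 2-fold higher after it, beside 13.3% and 24.4% of all genes. CD3G was 1 of 10 T cell markers at that level, with 3 lower and none higher, THY1 1 of 8 markers of fibroblasts, epithelium and endothelium, with 3 lower and 1 higher, and DES 1 of 11 neuronal and muscle genes, with 5 lower and 4 higher. The other 12 lists held no gene of the set. Among them were 38 immediate early genes and stress factors, of which 22 were at least 2-fold lower and 3 at least 2-fold higher, 51 B cell genes with 24 lower and none higher, and 51 interferon response genes with 29 lower and none higher. The median ratio of low over high c-Myc RPKM in those 3 lists was 2.45, 1.97 and 2.22, against 0.893 over all genes. As they held no gene of the set, each of their genes at 1 or more before release by definition stayed at 0.2 or above. By name, the set held 2 of 32 histone genes, 2 of 348 genes named only as open reading frames and none of 309 zinc finger genes of the ZNF series. Of all 10036 genes at 1 or more before release, 24 (0.239%) met the rule. With so small a share, nothing is read from these counts or from the lists that held no gene of the set.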

How the data were processed

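RNA sequencing of 1 library at 0 h and 1 library at 24 h of c-Myc release was analysed from the tables the authors deposited. Per the file headers these hold RPKM per RefSeq transcript and a second column renormalized by synthetic RNA, used only as an alternative since its method is unknown here. Per the submitters' processing notes, Bowtie (no version given) and build hg18 were used; the libraries mark strand, per the labels' protocols, but strand use in counting, multiple matches and filters: not given in the sources used here.

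Of 34286 rows, 92 were synthetic RNAs. GENCODE release 29 supplied transcript lengths and base composition, matched by accession. Depth was the number of reads that best made RPKM times length whole, with 52.2% and 47.4% of 2287 and 1438 low values within 0.05 of a whole number. The ratio of depths, 1.02, was shared by 65.1% of 1492 transcripts with few reads, and whole read pairs were taken from each gene's ratio. For 16 genes the pair matched the paired length within 3%. For 7 (HIST1H2BF, CCL4, HIST1H1D, SIRPB1, CLDN7, C1R and MCTP2) the fewest reads implying at least 300 bases were used, so their reads and intervals are less certain. MT1F, listed at 0 after release, gave no pair, so its reads, floor and interval rest on the paired length alone.

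No test between conditions was made. Named genes are all 24, with relatives, neighbours and 16 gene lists; members and lists were chosen with earlier results of these data known, and the relatives after the members were seen. Calculations used Python 3.11.15, numpy 2.4.6, pandas 2.3.3, scipy 1.17.1 and matplotlib 3.10.9. The depth estimate, the rule and the counting interval were tested on simulated data. The recovery of read pairs and the levels per cell were not.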

Additional observations from a re-analysis of the deposited data

How the results depend on the processing

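How many genes met the rule depended on its thresholds and scale. It was 24 as described, 6 with the limit after release at 0.1 and 141 at 0.5, and 4 with the limit before release at 2 and 84 at 0.5. No gene (0) met it in the columns renormalized by the authors, which are on another scale, so the same limits are not alike there. Values before release were 0.441 to 0.449 times the RPKM for the 23 genes above 0 after release. After release HIST1H2BF, for example, stood at 0.295 there against an RPKM of 0.132. The sum of all rows of a symbol gave 32 genes, of which 18 were among the 24, and scaling by RPKM sums without synthetic RNAs gave 33, which included all 24. Genes on the functional lists numbered 5 as described and 20 with the limit at 0.5. The count at least 2-fold lower per cell, 11, was 18 at the lower quartile and 7 at the upper quartile of the synthetic RNA ratios, and 2 genes were 4-fold lower. The CpG check of promoters was void and its alternatives were not run. No replicate could be left out and no paired analysis was possible because each group had 1 library. Counting error limits the weaker falls per cell: the intervals of 8 genes, on 54 to 264 recovered reads before release, reached below 1. For CCL4, HIST1H1D, CLDN7 and C1R among them these reads are the fewest that fit, so their intervals can be too wide.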

Other observations

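The authors' renormalized column treated MT1F unlike the other 23 genes. In the low c-Myc library the renormalized value was 0.441 to 0.449 times the RPKM for those 23, and 0.0167 times for MT1F, the gene listed at 0 in the other library. Its ratio in that column was 628. The ratio in that column was at most 5.11 for the others.

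Several genes lay just outside the rule. CD96, a receptor of T cells and NK cells, stood at an RPKM of 1.42 before release and 0.233 after it. CTSK, a cysteine protease of osteoclasts and macrophages, stood at 1.14 and 0.236. CHIT1, a chitinase of activated macrophages, stood at 1.73 and 0.202. GPR18, a G protein-coupled receptor of lymphocytes, stood at 0.978 and 0.11, and CHRM4, a muscarinic acetylcholine receptor, at 0.919 and 0.0776. SLC2A14, a close copy of the glucose transporter gene SLC2A3, stood at 3.53 and 0.221. These 6 of the 12 genes nearest the thresholds from outside were named after their values were seen.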
